A study of Mus musculus with 6 samples.

Results

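The contractile apparatus of skeletal muscle was examined through 42 genes of the sarcomere and of muscle contraction, in cultured muscle-derived stem/progenitor cells (MDSPCs) from young and old mice. The 42 genes were a fixed list of myosins, actins, troponins, tropomyosins, scaffold proteins and proteins of energy and calcium handling. All 42 were found by Ensembl identifier among the 21485 genes that all 6 samples shared. MDSPCs are slowly adhering cells, enriched from enzymatically digested skeletal muscle by serial transfer of the cells that had not yet attached to collagen-coated flasks. The study compared 3 populations from young mice with 3 from old mice. All 6 were grown in the same proliferation medium, with fetal bovine serum, horse serum and chick embryo extract, and profiled by droplet-based 3′ single-cell RNA sequencing. No agent, transgene or induction of differentiation is named in the labels, and ages, strain, sex and passage number are not given there. Each population, a cultured line named in its title as a biological replicate, was 1 sample. Each sample is described before the groups are compared.

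A sarcomere, the repeating contractile unit of striated muscle, is built from myosin thick filaments that pull on actin thin filaments. Calcium released through the ryanodine receptor binds troponin, which shifts tropomyosin on the actin filament and lets myosin attach. Many of these proteins come in embryonic, slow and fast forms encoded by separate genes, and developing or regenerating muscle uses embryonic forms before the adult ones. Cycling myoblasts express few of these genes. The transcription factor myogenin (Myog) appears when myoblasts leave the cell cycle, and the sarcomere genes follow.

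Of 62849 deposited barcodes, 61673 were kept as cells, between 8674 and 12541 per sample, with median depths from 13001 to 19951 unique molecular identifiers (UMIs, tags that let each captured RNA molecule be counted once) per cell. Young replicate 1 and old replicate 1 had been counted on a shorter gene list than the other 4 samples. Values in threes are in the order of replicates 1, 2 and 3. Levels below are in CPM, the UMIs of a gene per 1000000 UMIs of the sample over the shared genes. A 3′ library is meant to count a molecule once whatever its length, so levels of different genes were read as molecules, without a correction for length. Whether this holds for very long genes such as Ttn and Neb was not tested. All 9 myogenic markers had at least 1 UMI in each sample, with a summed level of 144 to 2431 CPM. At least 1 UMI is a weak criterion, however. Msc and Chrdl2 were near 0 in every sample, at most 0.185 and 0.118 CPM. Msc had 1 UMI in old replicate 3, and Chrdl2 had 1 in young replicate 3 and in old replicate 1. Myf5 and Pax7 were nearly absent from single samples. Myf5 had 1 UMI in young replicate 1 and Pax7 had 5 in young replicate 3. The sum includes Des, itself among the 42 genes, at 2.69 to 429 CPM. Endothelial, leukocyte, glial and cardiomyocyte lists summed to at most 1.37, 8.20, 2.58 and 0.662 CPM. The fibro-adipogenic list summed to 206 to 434 CPM, mostly Gsn and Col3a1. In young replicates 1 and 3 and old replicate 1 it exceeded the myogenic sum. It was 258, 286 and 206 CPM in these samples, compared with 163, 144 and 147 CPM. The smooth muscle and pericyte list ranged from 36.3 to 1485 CPM and, like most of the contractile genes, was highest in old replicate 3 and lowest in old replicate 1. Of it, Acta2 (smooth muscle α-actin) made up 25.8 to 1477 CPM, while Myh11 and Cnn1, which define smooth muscle, were at most 1.11 and 0.0794 CPM. The pericyte markers Cspg4, Rgs5 and Kcnj8 were at 0.46 to 17.8, 0.13 to 10.3 and 0 to 0.033 CPM. Its part in the contractile levels was not tested.

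The level of the contractile genes differed more between populations than between ages. Summed over the 39 members other than the tropomyosins, the level was 1337, 4765 and 407 CPM in young replicates 1, 2 and 3, and 421, 2521 and 15395 CPM in old replicates 1, 2 and 3. Both groups held a low and a high population, and they overlapped. Old replicate 3 was the highest of the 6 samples for 31 of the 42 genes, compared with 11% of the 14512 genes tested. Old replicate 1 was the lowest for 28 of the 42, compared with 8.43% of all genes tested. Over the 39 members with more than 3 UMIs in every sample, the median ratio of the highest to the lowest sample was 60.5, and 2.51 over the 13627 tested genes of which this held. In bulk values such as these sums, fewer expressing cells and less RNA per cell cannot be told apart. The cells themselves are examined further below.

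**Figure D1:**
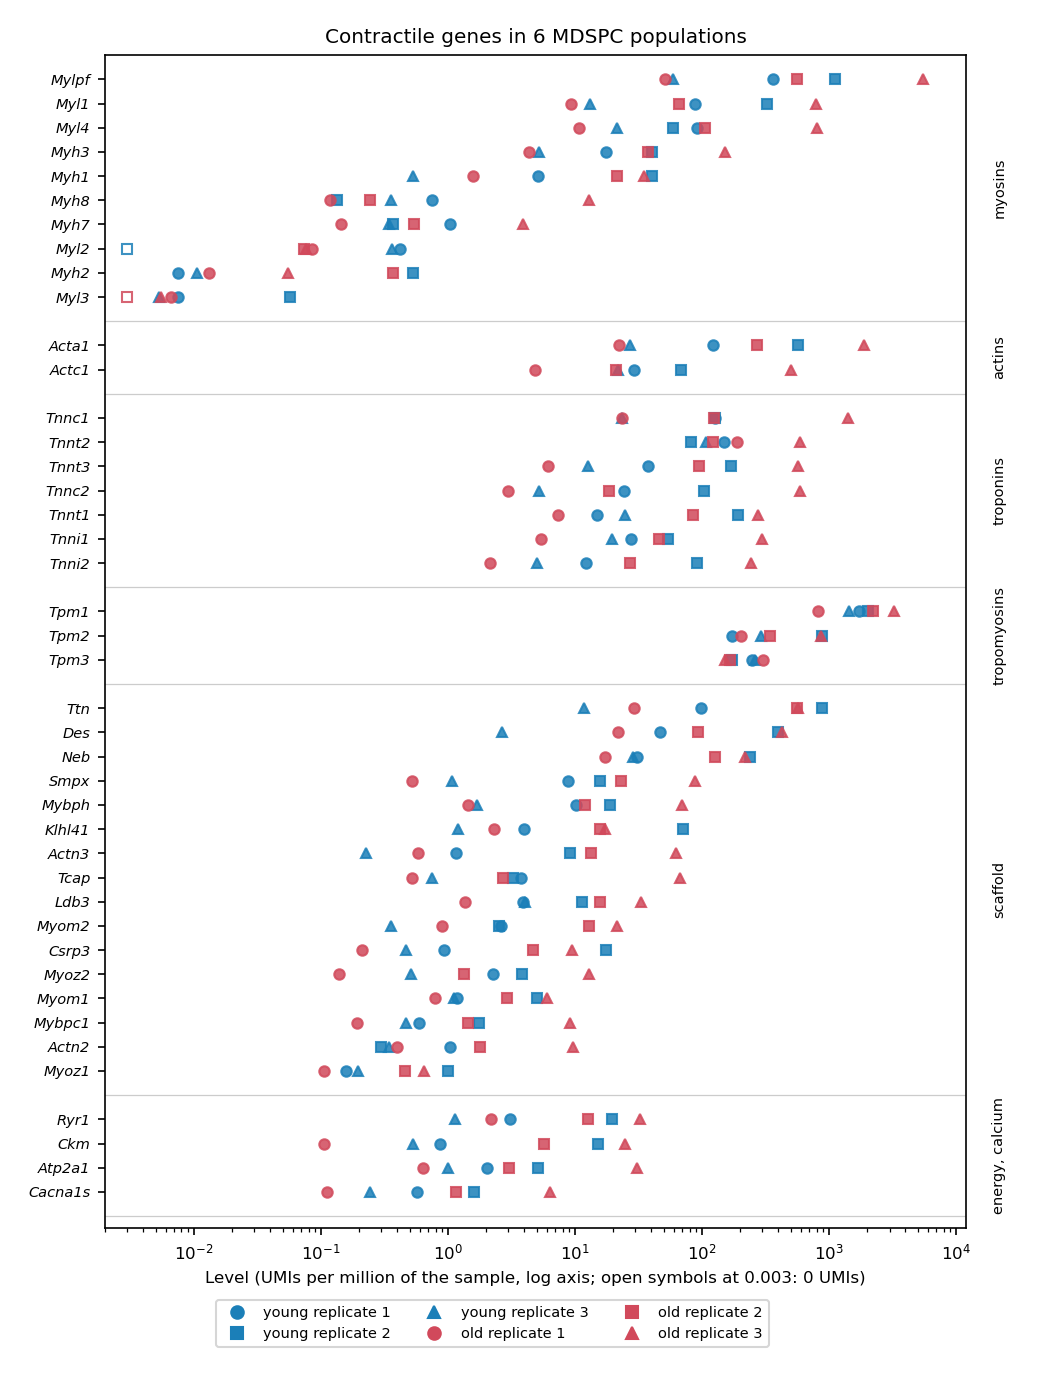
Level of each of the 42 genes (CPM, log axis) in the 6 samples, by role. Blue symbols are young and red symbols old populations, with the replicate given by the shape. Old replicate 3 (red triangles) lies farthest right for 31 genes and old replicate 1 (red circles) farthest left for 28, while the tropomyosins vary least.

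The myosin genes were led by the light chains. Mylpf (ENSMUSG00000030672; chromosome 7, 127208890 to 127214298, whole gene, GRCm38), which encodes the fast regulatory light chain, was at 363, 1115 and 59.6 CPM (young) and 51.5, 564 and 5487 CPM (old). Old replicate 3 stood above all others, and the lowest young and lowest old sample lay close together. Myl1, the fast essential light chain, was at 87.6, 324 and 13.3 CPM (young) and 9.35, 66.5 and 789 CPM (old). Myl4, the embryonic and atrial essential light chain, was at 91.8, 59.1 and 21.6 CPM (young) and 10.8, 107 and 805 CPM (old). Its order differed from that of Myl1, since young replicate 2 was below young replicate 1. Among the heavy chains, the motors themselves, embryonic Myh3 was at 17.6, 40.8 and 5.26 CPM (young) and 4.33, 37.5 and 152 CPM (old). Fast Myh1 was at 5.13, 40.5 and 0.53 CPM (young) and 1.59, 21.6 and 35.2 CPM (old), and was highest in young replicate 2. Perinatal Myh8 reached 12.9 CPM in old replicate 3 and was at most 0.76 CPM elsewhere. Slow Myh7 was at most 3.89 CPM. Fast Myh2, the ventricular and slow regulatory light chain Myl2 and the ventricular and slow essential light chain Myl3 stayed under 0.54 CPM in every sample. Myl2 had 0 UMIs in young replicate 2 and Myl3 had 0 in old replicate 2. Myh1, Myh2, Myh3 and Myh8 lie close together on chromosome 11 and are similar in sequence. The counting of reads that fit more than 1 of them is not given in the sources used here. Their split is therefore less certain than their sum.

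Both sarcomeric actins were present in each population. Acta1 (ENSMUSG00000031972; chromosome 8, 123891769 to 123894751), the skeletal muscle α-actin, was at 122, 571 and 27.2 CPM (young) and 22.1, 272 and 1893 CPM (old). Actc1 (ENSMUSG00000068614; chromosome 2, 114047282 to 114053548), the cardiac α-actin that embryonic skeletal muscle also makes, was at 29.5, 68.1 and 22 CPM (young) and 4.86, 21.2 and 506 CPM (old). Old replicate 3 was highest and old replicate 1 lowest for both. By mean level over the 6 samples, Mylpf was the most abundant member after the high tropomyosin Tpm1. In young replicate 3 and old replicate 1 it was below Tnnt2 and each tropomyosin. The 250 bases before the RefSeq start are shown for Acta1, Actc1 and Mylpf. They were chosen because old replicate 3 was the highest and old replicate 1 the lowest sample for all 3. For Mylpf and Actc1 GENCODE also has transcripts that start farther upstream, so these windows fall inside the gene spans above. The sequences, from RefSeq (GRCm38.p6), are 5′ to 3′ on the strand of the gene, at chr8:123894776-123895025 (minus strand) for Acta1, chr2:114052876-114053125 (minus strand) for Actc1 and chr7:127211358-127211607 (plus strand) for Mylpf. Capitals mark E-boxes (CANNTG, the site of the MyoD and myogenin family) and CArG boxes (the site of serum response factor), searched on both strands.
Acta1: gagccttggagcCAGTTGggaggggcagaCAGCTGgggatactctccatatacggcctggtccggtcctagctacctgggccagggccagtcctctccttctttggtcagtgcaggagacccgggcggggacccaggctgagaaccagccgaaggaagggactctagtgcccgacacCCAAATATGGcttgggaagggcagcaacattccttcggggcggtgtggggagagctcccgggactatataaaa
Actc1: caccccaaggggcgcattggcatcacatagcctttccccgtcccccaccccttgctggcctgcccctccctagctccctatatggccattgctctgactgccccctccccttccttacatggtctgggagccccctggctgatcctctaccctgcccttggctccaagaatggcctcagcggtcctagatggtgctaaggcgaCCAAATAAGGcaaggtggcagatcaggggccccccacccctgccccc
Mylpf: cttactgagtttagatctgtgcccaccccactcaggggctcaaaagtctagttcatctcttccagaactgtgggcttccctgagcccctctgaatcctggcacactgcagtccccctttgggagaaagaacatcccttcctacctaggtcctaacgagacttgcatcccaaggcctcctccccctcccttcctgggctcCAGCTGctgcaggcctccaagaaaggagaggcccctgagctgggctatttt
Acta1 held 2 E-boxes and 1 CArG box, Actc1 held 1 CArG box and 0 E-boxes, and Mylpf held 1 E-box and 0 CArG boxes. RefSeq promoters were matched for 35 of the 42 genes. Over the same 250 bases, at any listed start of a gene, a CArG box was found in 5 of these 35 (14.3%), compared with 1.62% of 27025 genes with a promoter in the table. An E-box was found in 28 of 35 (80.0%), compared with 69.3% of all genes. A match describes these letters only and is not evidence of binding.

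The troponins, the calcium switch of the thin filament, followed the same samples with 1 exception. Tnnc1, the slow and cardiac calcium-binding subunit, was at 128, 127 and 23.6 CPM (young) and 23.6, 125 and 1424 CPM (old). Tnnt3, the fast tropomyosin-binding subunit, was at 37.3, 170 and 12.7 CPM (young) and 6.14, 95.1 and 567 CPM (old). Tnnt2, the cardiac and embryonic form of that subunit, was the exception. It was at 151, 81.8 and 107 CPM (young) and 188, 123 and 595 CPM (old). Old replicate 1, the lowest sample for the other 6 troponins, was second highest for Tnnt2, and young replicate 2 was lowest. The other 4 troponins (Tnnc2, Tnni1, Tnni2 and Tnnt1) ranged from 2.17 CPM in old replicate 1 to 592 CPM in old replicate 3.

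The tropomyosin genes varied least. Tpm1 was at 1732, 2028 and 1442 CPM (young) and 819, 2226 and 3247 CPM (old). Tpm2 was at 174, 878 and 294 CPM (young) and 204, 346 and 861 CPM (old). Tpm3 was at 249, 172 and 261 CPM (young) and 300.4, 165 and 151 CPM (old), and it alone was highest in old replicate 1. These genes also make non-muscle tropomyosins from other exons, and the counts per gene do not separate them from the muscle forms.

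Among the scaffold genes, titin, nebulin and desmin were the most abundant. Ttn, the giant spring that spans from the Z-disc to the middle of the sarcomere, was at 98.6, 881 and 11.8 CPM (young) and 29.0, 562 and 567 CPM (old). Des, the muscle intermediate filament, was at 47.0, 401 and 2.69 CPM (young) and 21.8, 92.4 and 429 CPM (old). Neb, which lines the thin filament, was at 30.8, 240.0 and 28.7 CPM (young) and 17.4, 126 and 219 CPM (old). Young replicate 2 was the highest sample for Ttn and Neb and close to old replicate 3 for Des, although its level of Mylpf was far below that of old replicate 3. Of the other 13 scaffold genes, Smpx reached the highest level, 88.2 CPM in old replicate 3. The adult fast α-actinin Actn3 ranged from 0.23 CPM in young replicate 3 to 63.0 CPM in old replicate 3, a ratio of 277. Klhl41, which stabilises nebulin, was highest in young replicate 2 at 70.4 CPM, as were Csrp3 at 17.6 CPM and Myoz1 at 1.00 CPM.

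The genes of energy and calcium handling were the least abundant group, with a sum of 2.92 to 94.0 CPM. Ckm, the muscle creatine kinase, was at 0.86, 15.1 and 0.53 CPM (young) and 0.11, 5.74 and 24.6 CPM (old). Ryr1, the calcium release channel, was at 3.07, 19.6 and 1.14 CPM (young) and 2.19, 12.6 and 32.3 CPM (old). Atp2a1, the fast calcium pump, was at 2.03, 5.10 and 1.01 CPM (young) and 0.63, 3.05 and 30.8 CPM (old). Cacna1s, the voltage sensor, was at most 6.33 CPM. In old replicate 2, genes of chromosomes X, 11, 13 and 5 were shifted up as a whole, by a median of 0.681, 0.245, 0.222 and 0.212 on the log2 scale. The values of Smpx (X), Myh1, Myh2, Myh3, Myh8, Myl4 and Tcap (11), Actn2 (13) and Myl2 (5) were not corrected for it.

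Isoform choice was read as the share of a gene within its family, a ratio that does not depend on scaling between samples. Embryonic Myh3 was the main heavy chain, with 71.8%, 49.6% and 80.9% of the heavy chain UMIs (young) and 69.9%, 62.2% and 74.5% (old). Fast Myh1 was the next, from 8.22% in young replicate 3 to 49.2% in young replicate 2. Myh8 contributed 5.45% in young replicate 3 and 6.30% in old replicate 3, and Myh7 at most 5.29%. In the actins, Actc1 had a minority of 19.4%, 10.7% and 44.7% (young) and 18.0%, 7.24% and 21.1% (old), and Acta1 the rest. Embryonic Myl4 held 51.2%, 15.4% and 61.9% of the essential light chain UMIs (young) and 53.5%, 61.6% and 50.5% (old). Myl1 held nearly all of the remainder. Of the regulatory light chains, Mylpf made up at least 99.4% in each sample.

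Slow and embryonic troponins exceeded the fast ones in most populations. Slow Tnnc1 held 84.1%, 55% and 82.0% of the troponin C UMIs (young) and 88.8%, 87.1% and 70.6% (old). Slow Tnni1 held 69.1%, 37.3% and 79.5% of troponin I (young) and 71.6%, 62.6% and 55% (old). Tnnt2 held 74.2%, 18.4% and 74.1% of troponin T (young) and 93.3%, 40.5% and 41.4% (old). Young replicate 2 had the lowest share in 6 of the 7 families and was the only sample in which fast Tnni2 exceeded Tnni1. It was lowest for the shares of Myh3, Myl4, Myl2, Tnnc1, Tnni1 and Tnnt2, while that of Actc1 was lowest in old replicate 2. The Myl2 share was at most 0.609% in any sample, from 69 UMIs, so its order is near the floor and says little. In troponin T slow Tnnt1 was highest in young replicate 2, with 7.40%, 43.4% and 17.1% (young) and 3.65%, 28.1% and 19.2% (old). Fast Tnnt3 was highest in old replicate 3, with 18.4%, 38.2% and 8.79% (young) and 3.05%, 31.3% and 39.4% (old). With 95% Wilson intervals, counting error was at most 2.93 percentage points on either side in any share. Intervals cover counting error only. They treat each UMI as an independent draw, although few cells held many of the UMIs, as described below. Variation between cells is not covered, so the intervals are too narrow where few cells carry a family.

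The shares were also taken over cells with a Myog UMI only, an alternative chosen after the data were seen, since Tnnt2 was found in many cells without Myog. Unlike the shares above, these used cells thinned at random to 5000 UMIs each, without the shallower cells. Young replicate 2 alone was lowest in 5 of 7 families and shared the lowest value with old replicate 1 for Myl2, at 0 UMIs in both. The Tnnt2 share then narrowed to 48.8%, 18.8% and 44.4% (young) and 41.1%, 45.7% and 41.1% (old). The Myl4 share was 16.3% in young replicate 2, and the other 5 samples lay between 50.8% and 63.6%.

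**Figure D2:**
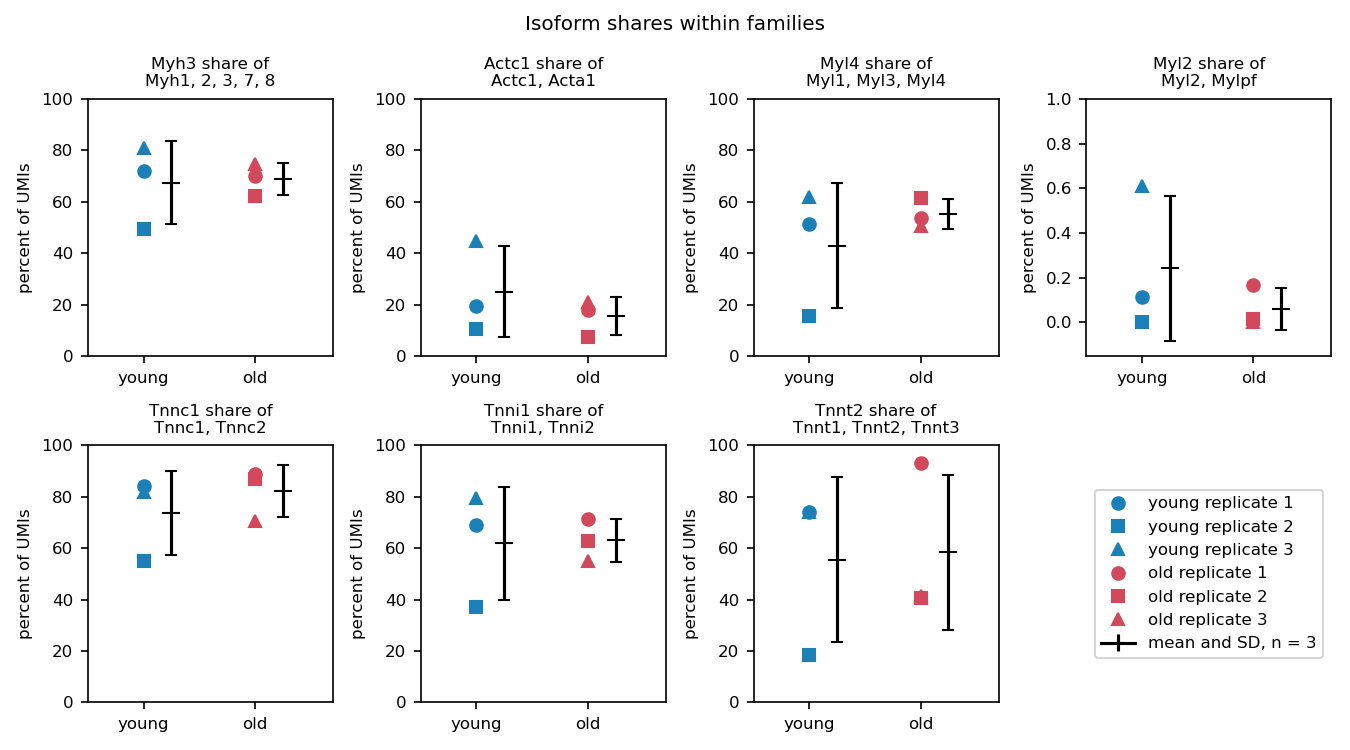
Share of 1 gene in the UMIs of its family (percent, 0 to 100 except for the Myl2 panel, which ends at 1) in 3 young and 3 old samples, with the mean and SD (n = 3) in black. Young replicate 2 (blue square) is lowest in 6 of 7 panels, at 49.6% for Myh3 and 15.4% for Myl4. In the Myl2 panel all samples lie near 0, at 0.609% or less.

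None of the 7 shares differed between ages beyond the spread of the samples. The groups overlapped in each. The old mean minus the young mean was 1.47 percentage points for Myh3, -9.46 for Actc1, 12.4 for Myl4, -0.181 for Myl2, 8.51 for Tnnc1, 1.15 for Tnni1 and 2.83 for Tnnt2. With means ± SD of 67.4% ± 16.1 (young) and 68.9% ± 6.18 (old, n = 3 each), Myh3 had an exact permutation p of 0.9. The two-sided exact permutation p-values of the 7 shares lay between 0.5 and 1, each was 1 after Benjamini-Hochberg adjustment over the 7, and 3 samples against 3 cannot give less than 0.1. In the 4 samples on the longer gene list the differences were 3.15, -13.5, 17.4, -0.297, 10.4, 0.468 and -5.30 points in the same order. Young replicate 1 and old replicate 1, the pair on the shorter list, gave -1.90, -1.35, 2.33, 0.0511, 4.78, 2.5 and 19.1 points, without replicates. Without young replicate 2 the difference became -7.45 for Myh3, -1.36 for Myl4, -0.816 for Tnnc1, -11.2 for Tnni1 and -15.7 for Tnnt2. Without young replicate 3 it became 0.437 for Actc1 and 0.00259 for Myl2, without old replicate 1 it became -3.09 for Tnni1 and -14.6 for Tnnt2, and without old replicate 3 it became -1.34 for Myh3.

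The UMIs lay in few cells. In old replicate 1, 12 of 10147 cells held 50% of the Mylpf UMIs, and in young replicate 3 it was 23 of 10780 cells. The number was 60 in young replicate 1, 178 in young replicate 2, 114 in old replicate 2 and 767 of 12541 cells in old replicate 3. The 1% of cells with the most Mylpf UMIs held 64.7%, 36.8% and 85.5% of them (young) and 92.5%, 42.7% and 12.7% (old). Had each cell drawn Mylpf in proportion to its depth, this share would have been between 2.57% and 5.84%. In old replicate 3, which had the lowest such share, 85.8% of cells had a Mylpf UMI (95% Wilson interval 85.2% to 86.4%). In the other samples Mylpf UMIs were found in 17.6%, 41.1% and 12.0% of the young and in 6.80% and 29.6% of the old cells. After each cell was thinned at random to 5000 UMIs, Mylpf was found in 9.05%, 25.4% and 4.66% of the young and in 2.73%, 16.9% and 73.2% of the old cells. A single cell held as many as 1885 Mylpf UMIs in old replicate 3, and 684 in old replicate 1, where the gene was lowest.

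By the top 1% of cells, Acta1 was more concentrated than Mylpf in each sample. The top 1% of cells held 67.9%, 45.9% and 98.3% of its UMIs (young) and 98.0%, 48.5% and 14.1% (old). All Actc1 UMIs of old replicate 1, 736 in number, came from 41 cells, and all 656 of its Myh3 UMIs from 58 cells. Ttn was less concentrated, with 37.0%, 9.59% and 79.8% (young) and 63.5%, 13.8% and 10.8% (old). In young replicate 2, Ttn and Des UMIs were found in 96.4% and 96.6% of the cells, in contrast to 19.2% for Acta1. Tnnt2 was found in 81.6% of the cells of old replicate 1 and 81.0% of those of old replicate 3, and in 54.7% and 60.9% at 5000 UMIs per cell. Its top 1% of cells held 6.91% and 10.2% of its UMIs there. Tnnt2 was not broad in every old sample. Outside the 1% of cells with the most Mylpf, at 5000 UMIs each, it was found in 40.4%, 12.3% and 35.1% (young). The values were 54.6%, 20.4% and 60.5% (old), so old replicate 2 lay below young replicates 1 and 3. Tpm1 was found in at least 98.7% of the cells of each sample, and its top 1% held between 3.61% and 8.13% of the UMIs.

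**Figure D3:**
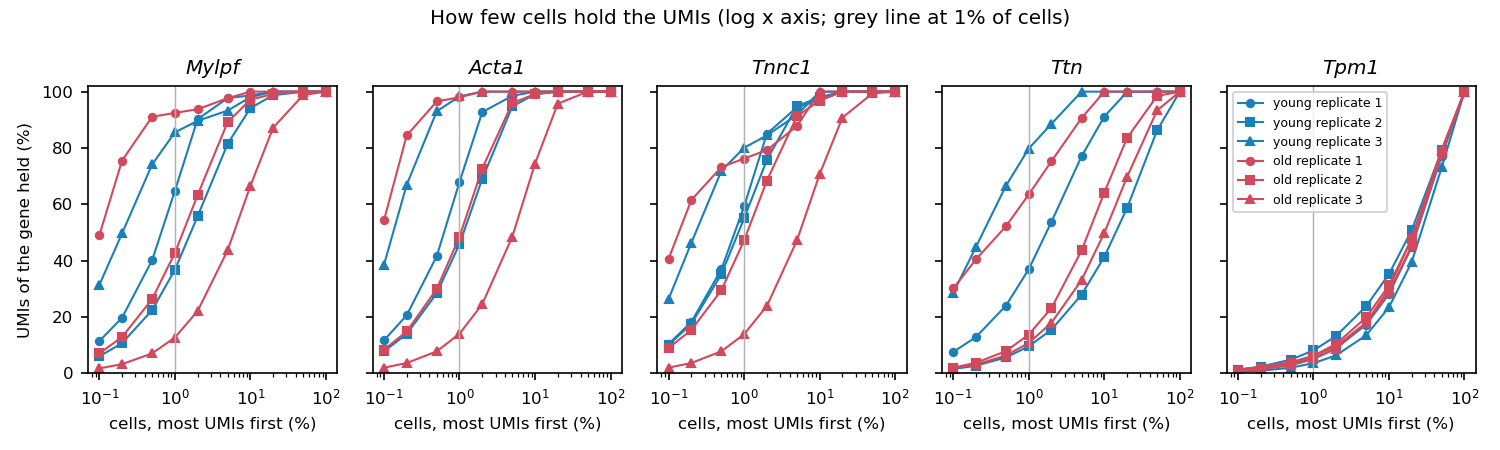
Percent of a gene's UMIs (y) held by the percent of cells with the most of them (x, log axis), 1 line per sample. At 1% of cells (grey line) the Mylpf lines run from 12.7% in old replicate 3 to 92.5% in old replicate 1, while the Tpm1 lines lie between 3.61% and 8.13%.

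Cells with a Myog UMI carried a larger share of most contractile genes than their own share of the cells. At 5000 UMIs per cell, Myog was found in 3.38%, 20.2% and 5.36% of the young and in 0.707%, 14.8% and 45.3% of the old cells. Without thinning these shares were 4.89%, 29.4% and 10.1%, and 1.15%, 22.4% and 56.0%. Of the 39 members other than the tropomyosins, summed, these cells held 77.0%, 73.5% and 64.0% of the UMIs (young) and 38.6%, 71.3% and 92% (old). In old replicate 1, the lowest, Tnnt2 made up 42.6% of that sum. The Myog-positive cells held 87.3%, 94.2% and 85.9% of the Mylpf UMIs (young) and 83.5%, 86.5% and 93.9% (old). For Actc1 the share was between 93.9% and 98.7%, and for Myh3 between 90.6% and 98.3%. It was lower for Ttn (42.2% to 81.5%) and Des (22.7% to 66.5%). For Tnnt2 it ran from 3.93% in old replicate 1 to 86.4% in old replicate 3, and for Tpm1 from 3.19% to 63.9% in the same samples. Tpm3 was the reverse case. In each sample the Myog-positive cells held a smaller share of Tpm3 UMIs, from 0.39% to 34.7%, than their share of the cells. Acta2, the smooth muscle actin, had 32.3%, 66.5% and 19.6% of its UMIs in Myog-positive cells (young) and 42.2%, 50.6% and 83.7% (old).

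Both the number of Myog-positive cells and the contractile RNA per such cell varied, and not in the same order. The mean Mylpf level of a Myog-positive cell, per 5000 UMIs, was 64.1, 24.2 and 6.15 UMIs (young) and 33.2, 15.7 and 54.5 UMIs (old). Young replicate 1, with few Myog-positive cells, had the highest mean, and old replicate 1, with the fewest, exceeded old replicate 2. The mean of old replicate 1 rests on 70 cells, and before thinning 0.1% of all its cells held 49.0% of its Mylpf UMIs. Young replicate 3 was lowest, and only 26.1% of its Myog-positive cells had a Mylpf UMI, compared with between 50% and 94.0% in the other 5 samples. Cells without a Myog UMI also had Mylpf UMIs, in 6.62%, 13.5% and 3.45% of the young and in 2.39%, 10.0% and 55.9% of the old cells at the same depth. No cell type that should lack the gene was present in number to serve as a background, so the part of free RNA in these shares was not tested.

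**Figure D4:**
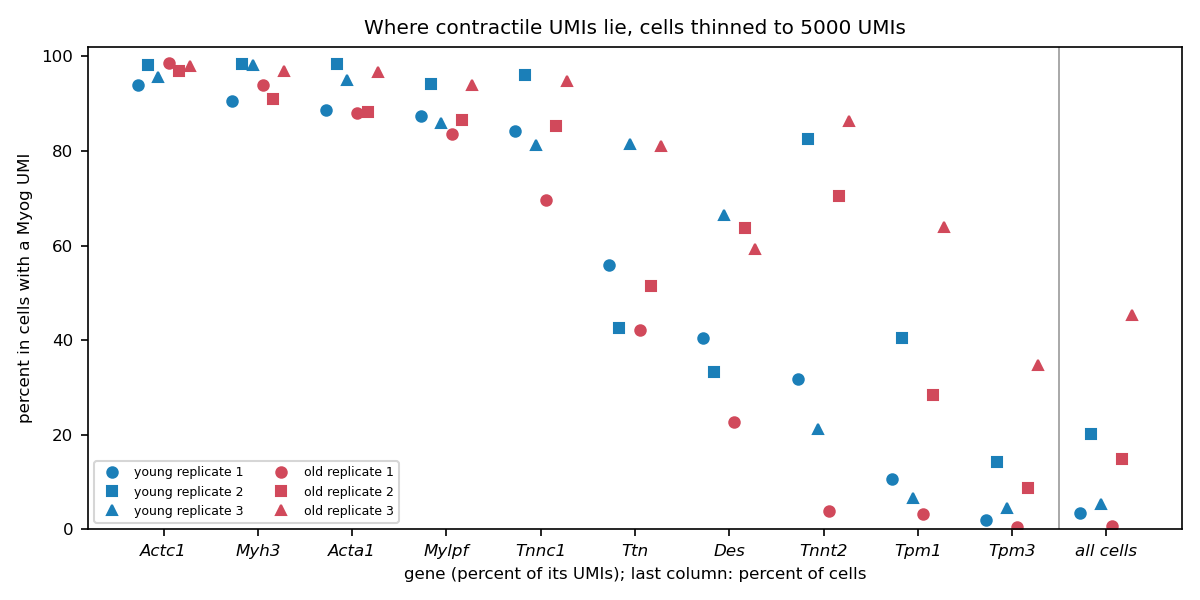
Percent of the UMIs of 10 genes that lay in cells with a Myog UMI, at 5000 UMIs per cell, with the percent of all cells that had one in the last column. Symbols are samples. Actc1 lies between 93.9% and 98.7% in all samples and Tpm3 below the share of cells.

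The 1% of cells with the most Mylpf, 85 to 122 cells per sample at 5000 UMIs each, were described further. The lowest of them had 101, 118 and 3 Mylpf UMIs (young) and 1, 74 and 246 (old), so in young replicate 3 and old replicate 1 they included cells with hardly any. In the remaining 4 samples Acta1, Tnnc1, Tpm1 and Tpm2 were found in all of these cells. Of the other cells of those samples, 3.91% to 37.3% had Acta1 and 6.82% to 47.6% had Tnnc1. Tpm2 was found in 46.5% to 91.6% of the other cells and Tpm1 in 98.6% to 99.6%. The proliferation marker Mki67 was found in 0%, 0.935% and 7.48% of them (young) and in 25%, 1.16% and 0% (old), compared with 18.9%, 20.1% and 27.5% (young) and 32.9%, 13.1% and 17.1% (old) of the other cells. The 0 counts allow shares of cells with a UMI of up to 3.53% in young replicate 1 and 2.46% in old replicate 3. In every sample the cells with the most Mylpf had the lower share of Mki67. In old replicate 1, however, it was 25% against 32.9%, and the cut fell among cells with the same count of 1 Mylpf UMI. The lower share there does not describe cells rich in Mylpf. Mymk, the fusion protein myomaker, was found in 98.8%, 97.2% and 56.1% of the top cells (young) and in 34%, 82.6% and 99.2% (old). Of the other cells, at most 33.3% had it, in old replicate 3. The non-muscle actin Actb was found in 63.5%, 89.7% and 92.5% of them (young) and in 98%, 89.5% and 55.7% (old), and in at least 98.2% of the other cells of each sample. These shares describe the cells at the chosen cut and were not tested.

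Old and young populations were then compared over all genes, to ask whether the contractile genes differ with the age of the donor. Of the 42 genes, 40 had enough counts to be tested, and Myh2 and Myl3 did not. The quasi-likelihood test of edgeR, adjusted by Benjamini and Hochberg's method over all genes, called 0 of the 40, and 0 had an unadjusted p under 0.05. Over all 14512 genes tested it called 0.00689%, and 3.53% had an unadjusted p under 0.05. DESeq2, as an alternative, called 0 of the 40, with an unadjusted p under 0.05 for Actn2 and Myh8, and called 1.51% of all genes, with 7.36% at that unadjusted threshold. The lowest unadjusted edgeR p among the 40 was 0.132 (Tnnt2, adjusted p = 1.00). The old and young CPM values overlapped for each of the 40, whereas 5.93% of all genes tested showed no overlap, 5.02% with the old samples higher and 0.903% with them lower. The standard errors (SE) of the log2 fold changes were wide, with a median of 1.66 over the 40 genes and 0.38 over all genes, and for 33 of the 40 the SE exceeded the fold change itself.

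Old over young, 30 of the 40 log2 fold changes were above 0, with a median of 0.65, compared with -0.01 over all genes. The sign of this median depended on single populations. Without old replicate 3 the median was -0.81 with 5 of 41 above 0, and without young replicate 3 it was -0.50 with 10 of 41 above 0. Leaving out young replicate 1 or old replicate 1, or using the longer gene list alone, gave 1.92. With 1 of these samples left out, the gene list term takes up the other, since only they are on the shorter list. Such edgeR fits, here and below, thus rest on the same samples as the longer list alone and are not separate checks. The median was 1.01 when young replicate 2 was left out and 0.99 when old replicate 2 was. With the replicate number as a block it was 0.06 and without the gene list term 1.37. By role, the median was 0.95 for the 8 myosin genes tested, 0.94 for the 2 actins, 0.99 for the 7 troponins, 0.02 for the 3 tropomyosins, 0.49 for the 16 scaffold genes and 0.66 for the 4 genes of energy and calcium handling, and 0 genes passed in any of them.

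The log2 fold change of Mylpf was 1.04 (SE 2.14), with group means of 512 ± 543 CPM (young) and 2034 ± 3001 CPM (old, SD, n = 3 each). Fold changes come from the fit with the gene list term and its own scaling of samples, so they need not match the ratio of CPM means. The log2 fold changes of Myl1 and Myl4 were 0.09 (SE 2.02) and 2.08 (SE 2.22). Acta1 had 0.64 (SE 1.86) and Actc1 1.25 (SE 2.02), Tnnc1 1.99 (SE 2.18) and Tnnt3 0.62 (SE 1.78). Each of these 7 became negative without old replicate 3, from -0.24 (Myl4) to -2.28 (Myl1), and all but Tnnc1 also without young replicate 3. Ttn, Des and Neb had -0.44 (SE 1.44), -0.19 (SE 1.59) and -0.13 (SE 0.86). All 3 became positive without young replicate 2, at 1.96, 2.82 and 0.91, and also without young replicate 1, without old replicate 1 or in the longer gene list alone, where they were 0.35, 0.42 and 0.40. Des was also positive, at 0.14, without old replicate 2. Ckm, Ryr1 and Atp2a1 had -0.17 (SE 1.68), 0.51 (SE 1.13) and 1.30 (SE 1.66). Without old replicate 3 Ryr1 became -0.23 and Atp2a1 -0.85, and without young replicate 3 Ryr1 became -0.25. Ckm was positive whenever young replicate 1 or 2 or old replicate 1 or 2 was left out, from 0.12 to 1.13. Tpm1 and Tpm2 were near 0 at 0.03 (SE 0.55) and 0.02 (SE 0.57), and were negative without young replicate 3 or old replicate 3, Tpm1 also without young replicate 2 (-0.09). Only Tnnt2, at 1.37 (SE 0.78), and Tpm3, at -0.29 (SE 0.23), kept their sign under every alternative run among the 17 members named by abundance, and neither passed the test. Their sizes moved, however. Tnnt2 was 0.19 without old replicate 3, 1.03 without young replicate 2 and 2.04 without young replicate 1 or old replicate 1, and Tpm3 was -0.12 without young replicate 3.

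**Figure D5:**
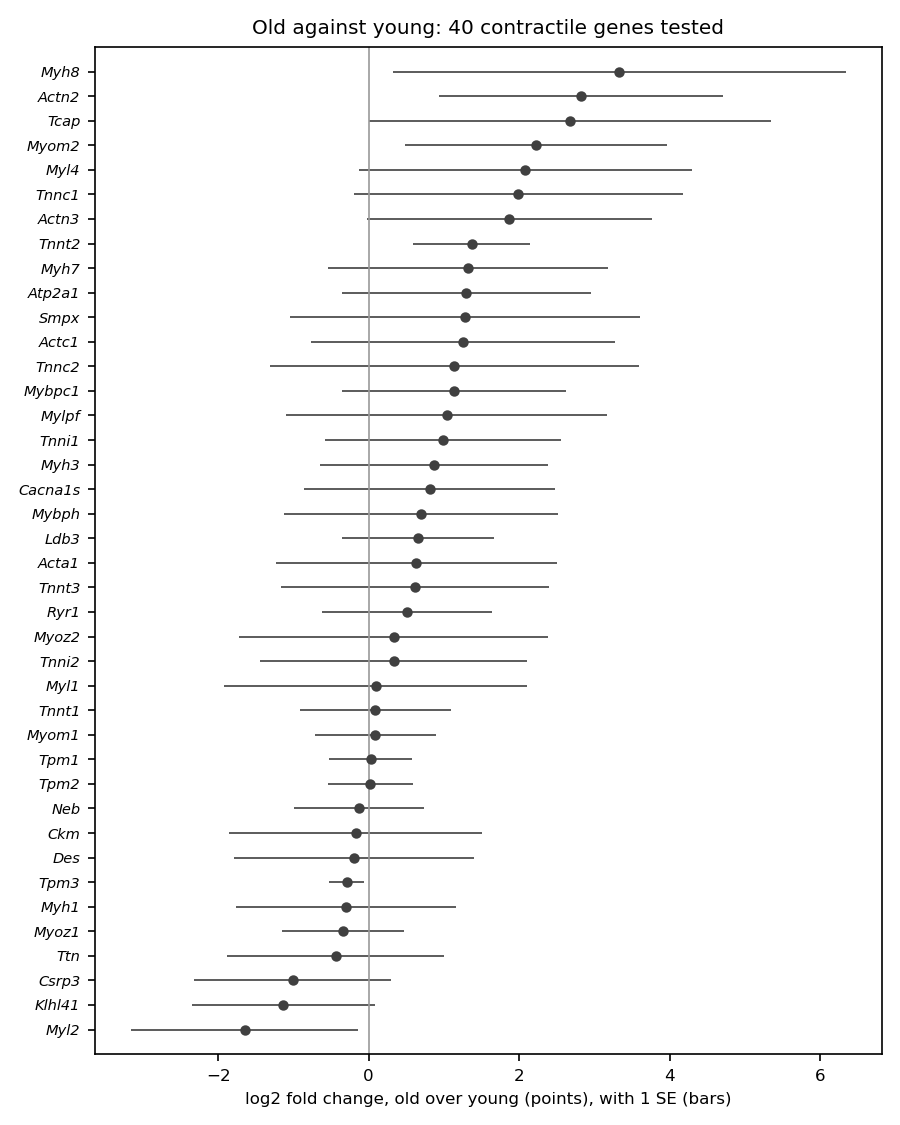
Log2 fold change, old over young, of the 40 contractile genes tested (points) with 1 model-based SE on either side (bars), sorted. 30 points lie right of 0, and the bars of 33 genes cross 0.

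In 4 further lists of genes that work with the contractile apparatus, 0 passed the edgeR test. An unadjusted p under 0.05 was found for 0 of 14, 2 of 25, 0 of 18 and 1 of 23 genes in the order of the lists below, and for 3.53% of all genes tested. Of 14 regulators of myogenesis and fusion, 13 had a log2 fold change above 0 and the median was 0.53. Without old replicate 3 it was 7 of 14 with a median of -0.10, and without young replicate 3 it was 5 of 14 with a median of -0.20. Leaving out young replicate 1, young replicate 2 or old replicate 1 gave medians of 1.13, 1.21 and 1.13. Myf5, an early myogenic factor, had the largest, 1.88 (SE 1.75), with 0.00748 CPM in young replicate 1 and 12.0 to 55.7 CPM in the others. It was 0.38 without young replicate 1 or old replicate 1, and 3.67 and 4.03 without old replicates 2 and 3. Without old replicate 1 the gene list term fits young replicate 1 alone, so that 0.38 does not show a dependence on old replicate 1. Myod1 was at 50.8, 459 and 45.7 CPM (young) and 64.1, 468 and 909 CPM (old). Mymk was at 15.9, 31.8 and 2.70 CPM (young) and 4.69, 25.9 and 213 CPM (old). Of 25 other sarcomere genes tested, 12 were above and 13 below 0, with a median of -0.04. That median became 0.48, 1.17 and 0.48 when young replicate 1, young replicate 2 or old replicate 1 was left out, and -1.07, -0.18 and -0.77 when young replicate 3, old replicate 2 or old replicate 3 was. Fhl1 had the largest change there, -2.65 (SE 2.13), and it became 1.42 without young replicate 2, where it was at 27.7 CPM compared with 7.30 CPM or less elsewhere. The groups did not overlap for 2 of these 25 genes, Ankrd1 (old higher) and Pdlim5 (old lower), compared with 5.93% of all genes tested. All 18 genes of excitation-contraction coupling and muscle metabolism were above 0, with a median of 0.97. Without old replicate 3 it was 12 of 18 with a median of 0.29, and without young replicate 3 it was 12 of 18 with a median of 0.19. Leaving out young replicate 1, young replicate 2 or old replicate 1 gave medians of 1.80, 1.53 and 1.80. Eno3, Pygm and Ak1, 3 of the 18, were higher in the old samples without overlap, compared with 5.02% of all genes tested. The calcium buffer Casq1 led the list with 4.04 (SE 2.93), which rested on old replicate 3 at 11.4 CPM against 0.31 CPM or less elsewhere and became -0.86 without it. Of 23 non-muscle and smooth muscle contractile genes, 18 were below 0, with a median of -0.26, which became -0.45 without young replicate 2 and -0.44 without old replicate 3. Actg2, the enteric smooth muscle actin, had -1.77 (SE 0.59, edgeR adjusted p = 1.00) at 0.53 CPM or less in every sample, lower in the old samples without overlap, as were 0.903% of all genes tested.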

How the data were processed

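Per the file headers, the authors deposited raw UMI counts per gene and cell barcode from Cell Ranger 7.0.0 (young replicate 1 and old replicate 1, 21849 features) or 7.2.0 (the other 4, 32285 features). Per the submitters' processing notes the genome was mm10. The annotation, the treatment of intronic and multiply mapped reads and cell calling are not given in the sources used here. Genes were joined by Ensembl identifier (21485 shared, 98.5% to 99.9% of each sample's UMIs). Barcodes with fewer than 1000 UMIs, fewer than 500 genes or at least 15% mitochondrial UMIs were removed. No doublet caller was run. Removing the deepest 8% of cells was an alternative. Between 23 and 35 barcode sequences were shared by any pair of samples. Counts were summed over kept cells and tested with edgeR 4.0.16 (TMM, filterByExpr, robust quasi-likelihood F test, terms for gene list and group) in R 4.3.3, adjusted over all genes at 0.05, with SE as the absolute fold change over the square root of F. DESeq2 1.42.0 was an alternative. CPM was not TMM-scaled. Positions are from GENCODE M21 (GRCm38). The script was tested on simulated counts. A share needed 20 or more UMIs in its denominator. Values in every sample are given for the 3 members of each role with the highest mean level, for any member called, and for any without overlap between groups, with further members where an isoform share needed them. In each further list the gene with the largest fold change is named, and Myod1, Mymk, Ankrd1, Pdlim5, Eno3, Pygm and Ak1 were chosen after their values were seen. The members, lists and tests were chosen with earlier results of these data known.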

Additional observations from a re-analysis of the deposited data

How the results depend on the processing

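Calls over all genes were 1 in the analysis as reported, 219 with DESeq2 and 0 without the gene list term or on the longer gene list alone. They ranged from 0 to 3 when 1 sample was left out. No contractile gene was called under any alternative run. The block made Myl1 -1.35, Mylpf -0.37, Acta1 -0.32, Actc1 -0.80, Tnnt3 -0.24, Tpm1 -0.0049, Ttn 0.16 and Neb 0.088, and changed no call of these genes. The replicate numbers were not taken to pair the samples, because deviations from the group means correlated at 0.378 and 0.224 for numbers 1 and 2 but at -0.0814 for number 3. Not every sample correlated best with its own number. Young replicate 1 and old replicate 1 also shared the shorter gene list, which was not removed here, so their correlation cannot tell pairing from the list. Without the gene list term the log2 fold changes of Des, Ttn, Neb and Ckm were 0.29, 0.20, 0.27 and 0.92, and on the longer list alone 0.42, 0.35, 0.40 and 1.01. Without that term the medians of the further lists, in the order given above, were 0.79, 0.28, 1.48 and -0.27. The other sarcomere genes then had 15 above and 10 below 0. Without the deepest 8% of cells Myl1 was -0.018. Leaving out 1 sample at a time gave ranges of -2.28 to 1.41 for Myl1, -0.24 to 3.59 for Myl4, -1.28 to 2.43 for Mylpf, -1.22 to 1.92 for Acta1, -1.87 to 2.65 for Actc1, -0.61 to 3.45 for Tnnc1, -1.13 to 1.92 for Tnnt3, 0.19 to 2.04 for Tnnt2, -0.41 to -0.12 for Tpm3, 0.38 to 4.03 for Myf5, -0.41 to 0.73 for Tpm1, -0.52 to 0.59 for Tpm2, -1.32 to 2.82 for Des, -1.31 to 1.96 for Ttn, -0.79 to 0.91 for Neb, -1.58 to 1.13 for Ckm, -0.25 to 1.96 for Ryr1, -0.85 to 2.55 for Atp2a1, -4.57 to 1.42 for Fhl1 and -0.86 to 5.58 for Casq1. For the isoform shares the ranges, in percentage points, were -7.45 to 8.21 for Myh3, -16.6 to 0.437 for Actc1, -1.36 to 21.9 for Myl4, -0.302 to 0.00259 for Myl2, -0.816 to 14.3 for Tnnc1, -11.2 to 9.91 for Tnni1 and -15.7 to 12.2 for Tnnt2. The Tnnt2 share also turned to -5.30 on the longer list alone. The top 5% of cells in place of 1% held medians of 91.2% (Mylpf), 97.3% (Acta1), 91.5% (Tnnc1), 60.3% (Ttn) and 18.0% (Tpm1), which follows from counting more cells. Without thinning the median share of Mylpf UMIs in Myog-positive cells was 91.6% rather than 86.9%. The cause of the other changes was not tested. The counts and medians of the further gene lists with 1 sample left out or without the gene list term were added after the data were seen.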

Other observations

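Barcodes with under 1000 UMIs, which were left out except in the alternative over every deposited barcode, also carried contractile UMIs. The 39 members other than the tropomyosins summed to 13924, 5621 and 4657 CPM (young) and to 10092, 5679 and 12376 CPM (old) there, above the kept cells in each sample but old replicate 3. These barcodes were few, 69 to 192 per sample. Of these UMIs, 50% lay in 7, 6 and 3 barcodes (young) and in 3, 2 and 32 barcodes (old). Ttn was higher in the shallow barcodes than in the kept cells of every sample. In the shallow barcodes it was at 1986, 1668 and 56.5 CPM (young) and 2977, 1265 and 4517 CPM (old). The value of young replicate 3 rests on 5 UMIs. In the kept cells Ttn was at 98.6, 881 and 11.8 CPM (young) and 29.0, 562 and 567 CPM (old).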
